A study of Homo sapiens with 14 samples.

Results

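In RH30 cells a stretch of chromosome 6q12-q13 carried far more peaks of open chromatin than in LHCN myoblasts. The stretch was chr6:67000000-76000000 of hg19, a segment of 9 Mb. All peaks of the deposited lists that overlapped it were taken. They numbered 21243 of 1971391 peaks over 14 ATAC-seq libraries, 1275 to 2629 in each RH30 library and 413 to 456 in each LHCN library. The segment was chosen by measured values, namely its peak number in RH30 over LHCN and its lower numbers with QC6352 and with shCtrl. Those comparisons are therefore described below and not tested. The tests were kept for PAX3-FOXO1 against vector and for one KDM4B hairpin against the other.

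The libraries formed 7 groups of 2. RH30 is an alveolar rhabdomyosarcoma line with a PAX3-FOXO1 fusion of its own, and all 10 RH30 libraries share that fusion. RH30 cells received QC6352 at 200 nM, a compound that inhibits histone demethylases of the KDM4 family, or 0.1% DMSO. Other RH30 cells were transduced with the hairpins shKDM4B-813 or shKDM4B-814 against KDM4B, or with the control hairpin shCtrl. LHCN is an immortalised human myoblast line, which expressed PAX3-FOXO1 or carried an empty vector. The labels give 72 h for the PAX3-FOXO1 and vector cells and for the hairpins, in wording that may cover the compound too. They do not say whether the libraries of a group came from separate cultures. Errors within a group, and p-values, therefore measure only the spread between libraries, which may be technical. Errors over all 10 RH30 libraries, or over all LHCN libraries, also take in the differences between their treatment groups. Those libraries are not replicates of a single condition. The level of KDM4B was not measured by this assay, and the identity of the lines was not checked against marker genes here.

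ATAC-seq uses the Tn5 transposase to insert sequencing adapters into DNA that is not wrapped in nucleosomes or packed away. A peak caller then marks stretches where insertions pile up over the background, which are mostly promoters, enhancers and insulator sites. The KDM4 enzymes remove methyl groups from histone tails, and some, but not all, of the methylation they remove is known from compact chromatin. Tumour genomes often hold regions in extra copies, and extra copies also add insertions. In RefSeq gene order (GRCh38.p14, used for names alone), 25 protein-coding genes run from ADGRB3, an adhesion receptor of the brain, to COL12A1, a collagen chain. Between them lie the collagen genes COL19A1 and COL9A1, the synaptic vesicle gene RIMS1, the potassium channel gene KCNQ5, the cytosolic DNA sensor gene CGAS and the translation elongation factor gene EEF1A1. No peak was assigned to a gene, because no hg19 annotation was used here, and no sequence of that build was used.

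Lists differed in length, with 93488 to 176899 peaks in RH30 and 170390 to 175594 in LHCN. Unless stated otherwise, each list was therefore trimmed to its 93488 strongest peaks, the length of the shortest. Read depth is unknown. Every fold of a list was a whole multiple of 1 step (tolerance 0.05 of a step), in the list as in the segment. The inverse of that step was 2.33 to 4.21 over the 14 libraries. It equals the background pileup only if no constant was added to pileup and background, and the settings are not given. The strength of a peak is thus set against 1 background for the whole genome. More DNA copies and more accessible DNA per copy cannot be told apart in these values.

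At equal list length the segment held 1342 ± 393 peaks in RH30 (mean ± SD, n = 10) and 225 ± 16.8 in LHCN (n = 4), a ratio of 5.97 and a log2 ratio of 2.58. With QC6352, RH30 had 1134 and 1292 peaks, and with DMSO it had 1818 and 1304. With shKDM4B-813 it had 1244 and 1266 peaks, with shKDM4B-814 it had 1931 and 1786, and with shCtrl it had 908 and 736. In LHCN there were 210 and 211 peaks with PAX3-FOXO1, against 243 and 235 with vector. The RH30 library with the fewest peaks, the second of shCtrl, was still above all 4 LHCN libraries. The rest of chromosome 6 went the other way, with 3479 ± 638 peaks in RH30 and 5611 ± 85.8 in LHCN, a ratio of 0.620. As deposited, the lists gave 1952 ± 452 segment peaks in RH30 and 430.5 ± 19.7 in LHCN, a ratio of 4.53. In shares of the deposited list, that is 0.871% to 2.13% in RH30 and 0.235% to 0.261% in LHCN.

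**Figure D1:**
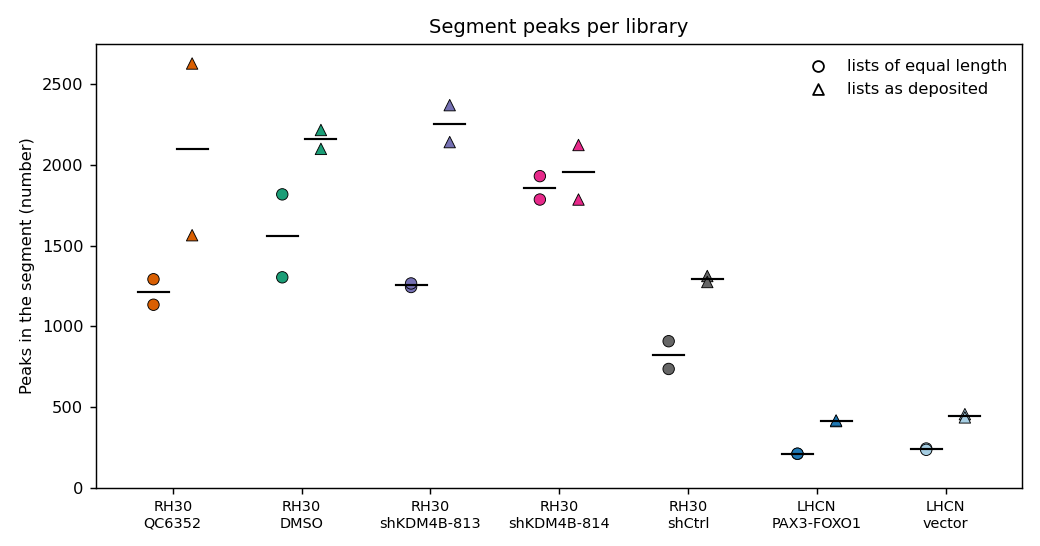
Number of peaks in the 6q12-q13 segment (vertical axis) in each library, by group. Circles are lists of equal length, triangles are lists as deposited, and bars are group means of 2 libraries. The 10 RH30 libraries sit between 736 and 1931 at equal length, all above the LHCN libraries at 210 to 243.

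Peaks were unevenly spread over the 9 windows of 1 Mb. The window at 67 to 68 Mb had 7.0 ± 3.74 peaks in RH30 and 4.0 ± 1.41 in LHCN, and the window at 75 to 76 Mb had 17.5 ± 7.5 in RH30 and 31.3 ± 3.20 in LHCN. Both lie inside the rule's bounds, but neither shared the excess of the 7 windows between them. Just outside the bounds, the window at 66 to 67 Mb had 1.5 ± 1.58 peaks in RH30 and none in LHCN, and the window at 76 to 77 Mb had 19.8 in RH30 and 23.5 in LHCN. The rule's bounds were thus wider than the peak-rich stretch.

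The 7 windows from 68 to 75 Mb each had over 5 times as many peaks in RH30 as in LHCN. The window at 68 to 69 Mb had the highest ratio, 10.3, with 123 ± 51.1 peaks in RH30 and 12.0 ± 2.0 in LHCN. The window at 69 to 70 Mb had 92.1 ± 40.7 peaks in RH30 and 12.0 ± 1.83 in LHCN, a ratio of 7.68. The next, at 70 to 71 Mb, had 146 ± 36.0 in RH30 and 29.0 ± 1.83 in LHCN, and its ratio of 5.03 was the lowest of the 7. The window at 69 to 70 Mb thus had the fewest RH30 peaks of the 7. The count at 68 to 69 Mb is not a density of the stretch, whose left edge, given below, falls inside that window. From 71 to 75 Mb the RH30 means were 229.7, 251, 226 and 249.6 peaks per window and the LHCN means were 31.5, 31.5, 41.0 and 32.5. Those 4 windows gave ratios of 7.29, 7.97, 5.51 and 7.68. In every one of the 7 windows the lowest RH30 library, at 48 to 159 peaks, was above the highest LHCN library, at 14 to 45.

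Over the genome, 2569 windows of 1 Mb had a mean of at least 5 peaks in LHCN, 8 of them in the segment. In 43 of the 2569 the RH30 mean was at least 4 times the LHCN mean, which is 1.67% of the windows, and 7 of the 43 lay in the segment. Since the segment was chosen for this ratio, that count is a description. Outside the segment the median ratio was 0.764, with a 5th percentile of 0.315, a 95th of 2.48 and a 99th of 4.49. The 7 segment windows all exceeded that 99th percentile. Only 2 windows elsewhere exceeded the 7.97 of the window at 72 to 73 Mb. They were chr11:70000001-71000000, with 278.5 peaks in RH30 and 25.3 in LHCN (ratio 11), and chr2:2000001-3000000, with 47.5 in RH30 and 5.75 in LHCN (ratio 8.26).

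The edges of the stretch were located in each RH30 library by the pair of bin borders that best divided its peak counts in 100 kb bins, scaled to LHCN. The left edge came out at 68400001 in all 10 libraries. The right edge was at 75000000 in 5 libraries, both of QC6352, both of shCtrl and the second of DMSO, and at 75100000 in the other 5. With 10 kb bins the left edge ranged from 68380001 to 68440001 and the right edge from 74990000 to 75100000. The libraries thus placed each edge within about 1 bin of 100 kb of one another. The stretch that all libraries shared, chr6:68400001-75000000, is 6.6 Mb long and is called the core below.

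Across the left edge the count changed within a single bin. The bin chr6:68300001-68400000 had 2.2 ± 1.62 peaks in RH30 and 3.5 ± 0.577 in LHCN, while chr6:68400001-68500000 had 15.5 ± 7.25 in RH30 and 2.0 in each LHCN library. The right edge was spread over 1 bin more. There chr6:74900001-75000000 had 20.2 ± 8.51 peaks in RH30 and none in LHCN, chr6:75000001-75100000 had 8.1 ± 6.40 in RH30 and 2.0 ± 1.16 in LHCN, and chr6:75100001-75200000 had 0.1 ± 0.316 in RH30 and 1.5 ± 0.577 in LHCN. In the middle bin the RH30 libraries ranged from 1 to 20 peaks.

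**Figure D2:**
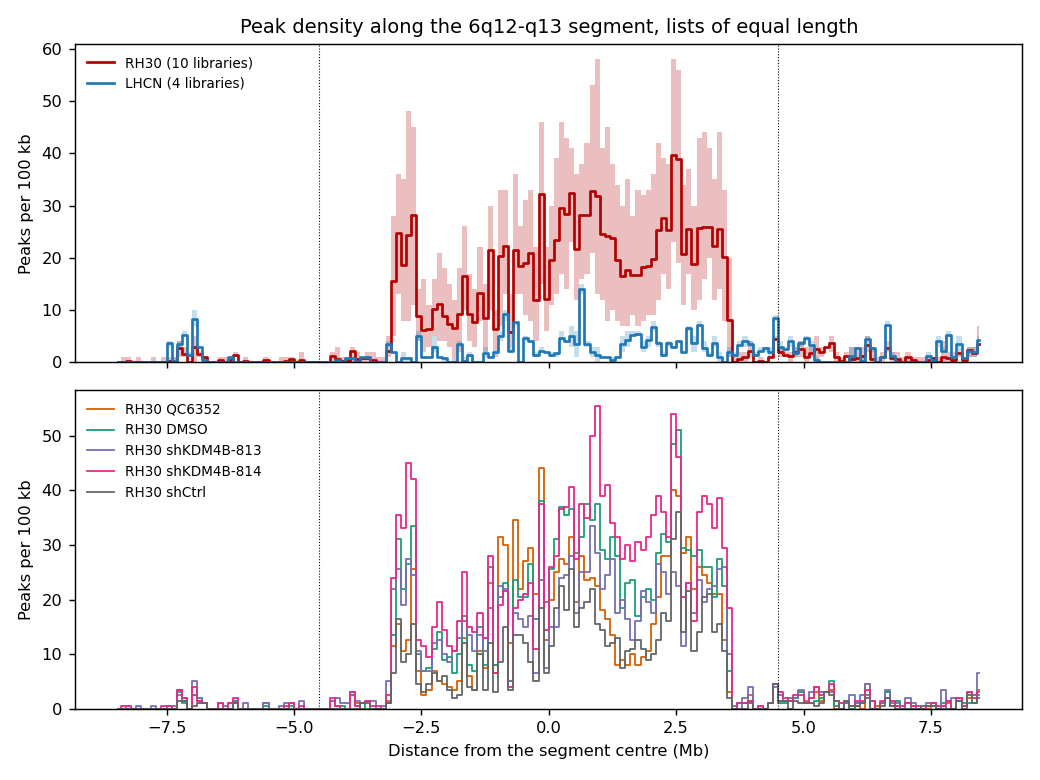
Peaks per 100 kb (vertical axis) against distance from the segment centre in Mb, in lists of equal length. The upper panel shows the mean (line) and range (shading) of 10 RH30 and 4 LHCN libraries, the lower panel the mean of each RH30 group, and dotted lines mark the bounds of the 9 Mb segment. The RH30 lines leave the LHCN level at the same bin on the left in all groups and return to it within 1 to 2 bins on the right.

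Within the core the RH30 peaks were dense but uneven. The core held 1315 ± 385 peaks in RH30 and 186 ± 12.0 in LHCN, a ratio of 7.07, and the density was 110 to 286 peaks per Mb in RH30 and 26.7 to 30.3 in LHCN. Peaks covered 5.22% to 12.8% of its bases in RH30 and 1.3% to 1.48% in LHCN. The median step from one peak to the next was 2033 to 4960 bp in RH30 and 14120 to 18390 bp in LHCN. The longest stretch without a peak was 54592 to 146201 bp in RH30 and 315031 to 384876 bp in LHCN. Of the 66 bins of 100 kb in the core, 9 to 13 had no peak in an LHCN library. In RH30, 9 libraries had a peak in every bin, and the first library of shCtrl had 1 empty bin.

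The densest core bins were next to each other, chr6:73900001-74000000 with 39.7 ± 12.6 peaks in RH30 and 3.0 in LHCN, and chr6:74000001-74100000 with 38.9 ± 10.8 in RH30 and 4.0 in LHCN. The sparsest was chr6:70700001-70800000, with 5.9 ± 3.32 in RH30 and 2.25 ± 0.5 in LHCN. Even the sparsest bins kept more peaks on average in RH30 than in LHCN. The parts of the segment outside the core did not share the excess. Left of the core RH30 had 3 to 20 peaks and LHCN 5 to 9, and right of it RH30 had 8 to 31 and LHCN 28 to 34.

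Segment peaks were of ordinary width. Their median width was 298 to 487.5 bp over the RH30 libraries, against 307 to 467 bp for the rest of the same lists, and 356.5 to 380 bp in LHCN, against 403 to 415 bp for the rest. Segment peaks were wider than the rest in 2 RH30 libraries, the second of QC6352 and the first of shKDM4B-813, and narrower in the other 8. The shCtrl libraries stood out with medians of 327.5 and 343 bp in the segment, against 389 and 409 bp elsewhere. By core window, medians ranged from 261 to 558 bp in RH30 and from 319 to 600 bp in LHCN. The RH30 excess in peak number thus came without a general gain in peak width.

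The typical segment peak was weaker than the typical peak elsewhere, in all 14 lists. The fold here is the authors' value, the pileup at the summit over the background. With QC6352 its median was 5.82 and 6.17 in the segment, against 6.55 and 6.41 elsewhere. With DMSO it was 5.98 and 6.08, against 7.97 and 7.43 elsewhere. With shKDM4B-813 it was 8.51 and 7.38, against 9.73 and 8.20, and with shKDM4B-814 it was 6.18 and 6.01, against 7.73 and 6.87. The shCtrl medians were 6.31 and 6.60, against 6.69 and 6.97. LHCN folds were on a higher scale, with medians of 13 to 18.9 in the segment and 13.7 to 20.1 elsewhere. The many RH30 peaks of the segment were therefore mostly of low fold, and DMSO had the widest gap to its own list.

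Among the strongest peaks the segment's share was raised as well. Of the 1000 strongest peaks of each list, 5.4% and 6.8% lay in the segment with QC6352, against 3.3% and 3.0% with DMSO. It was 5.8% and 5.9% with shKDM4B-813, 3.8% and 3.4% with shKDM4B-814, and 2.9% and 2.5% with shCtrl. In LHCN it was 0.2% in both PAX3-FOXO1 libraries and 0.1% in both vector libraries. The share then dipped: among the 25000 strongest it was 0.812% and 1.2% with QC6352, 0.612% and 0.508% with DMSO, and 0.508% to 1.2% over all RH30 libraries. At the full 93488 peaks it had climbed again, to 1.21% and 1.38% with QC6352 and to 1.95% and 1.40% with DMSO. In RH30 the segment thus held a raised share of both the very strong and the weak peaks, and in LHCN its share stayed between 0.1% and 0.26% at every list length tried. QC6352 was above DMSO among the 1000 to 25000 strongest peaks and below it at 93488 peaks.

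**Figure D3:**
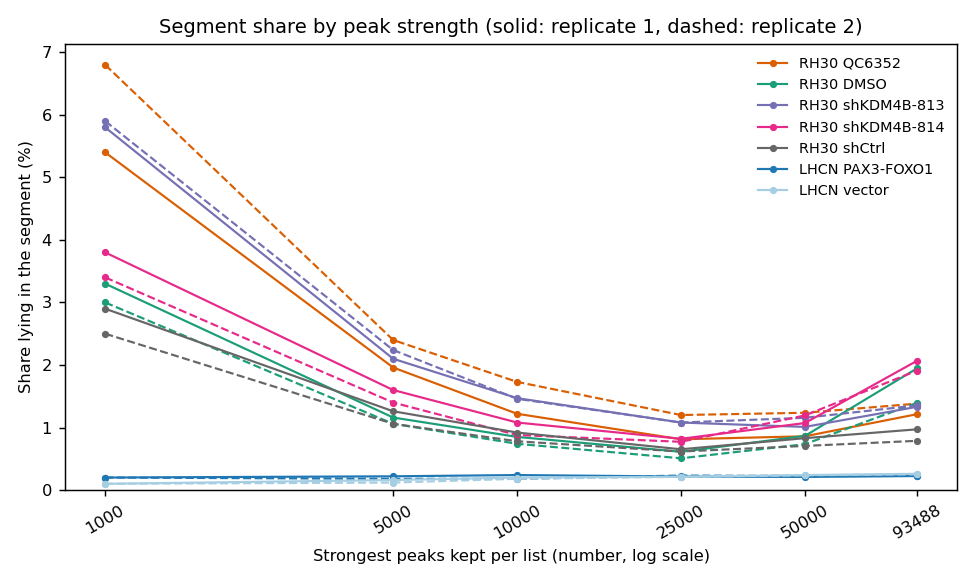
Share of the strongest peaks of each list that lay in the segment (vertical axis, %), against the number of strongest peaks kept (horizontal, log scale). Solid and dashed lines are the first and second library of a group. RH30 lines run from 2.5% to 6.8% at 1000 peaks through a minimum at 25000 or 50000 to 0.787% to 2.07% at 93488, while LHCN lines stay near 0.2%.

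Sites open in every library allow strength to be compared at the same positions. Of the merged regions of all trimmed lists, 101 in the segment and 23434 elsewhere had a peak in all 14 libraries, and 95 of the 101 lay in the core. At the core sites the median fold was 20 and 26.6 with QC6352, against 10.9 and 10.2 at the sites elsewhere. With DMSO it was 29.6 and 24.0, against 17.6 and 17.2 elsewhere. Over the hairpin and shCtrl libraries it was 15.8 to 48.6, against 10.8 to 17.8 elsewhere, and higher at core sites in each of them. In LHCN it was 20.2 and 28.3 with PAX3-FOXO1, against 25.3 and 33.7 elsewhere. In LHCN with vector it was 28.0 and 28.4, against 39.9 and 41.7 elsewhere. Among these sites, core sites were thus stronger than the others in RH30 and weaker than the others in LHCN. Entry required a peak in all 10 RH30 lists. Of regions with a peak in all 4 LHCN libraries, 66.9% met that in the segment, against 35.9% elsewhere. Weaker LHCN sites may therefore enter more readily in the core. How much this filter adds to the differences between core and elsewhere, here and below, was not tested.

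Set site by site against the LHCN mean, and with the same value over sites elsewhere taken off, the core sites were 1.34 ± 0.30 higher on the log2 scale in RH30 (n = 10) and 0.0068 ± 0.14 in LHCN (n = 4), where 0 is set by the method. The RH30 value is a fold of 2.53. By library it was 1.22 and 1.65 with QC6352, and 1.12 and 1.0 with DMSO. It was 1.72 and 1.79 with shKDM4B-813, 1.5 and 1.29 with shKDM4B-814, and 1.17 and 0.96 with shCtrl. Every RH30 library was above every LHCN library, at -0.15 to 0.17. The 6 shared sites outside the core went the other way in RH30, at -1.22 to -0.12, against -0.11 to 0.11 in LHCN.

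RH30 was above 0 in each core window with at least 5 shared sites. It was 1.90 ± 0.53 in RH30 over the 6 sites at 69 to 70 Mb, 1.25 ± 0.33 over 19 sites at 70 to 71 Mb, and 1.36 ± 0.26 over 18 sites at 71 to 72 Mb. It was 1.2 ± 0.28 over 18 sites at 72 to 73 Mb, 1.48 ± 0.44 over 16 sites at 73 to 74 Mb and 1.40 ± 0.23 over 17 sites at 74 to 75 Mb. The spread between windows was about as wide as the spread between libraries. At 75 to 76 Mb the 5 sites stood at -0.58 ± 0.36, below the shared sites elsewhere.

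**Figure D4:**
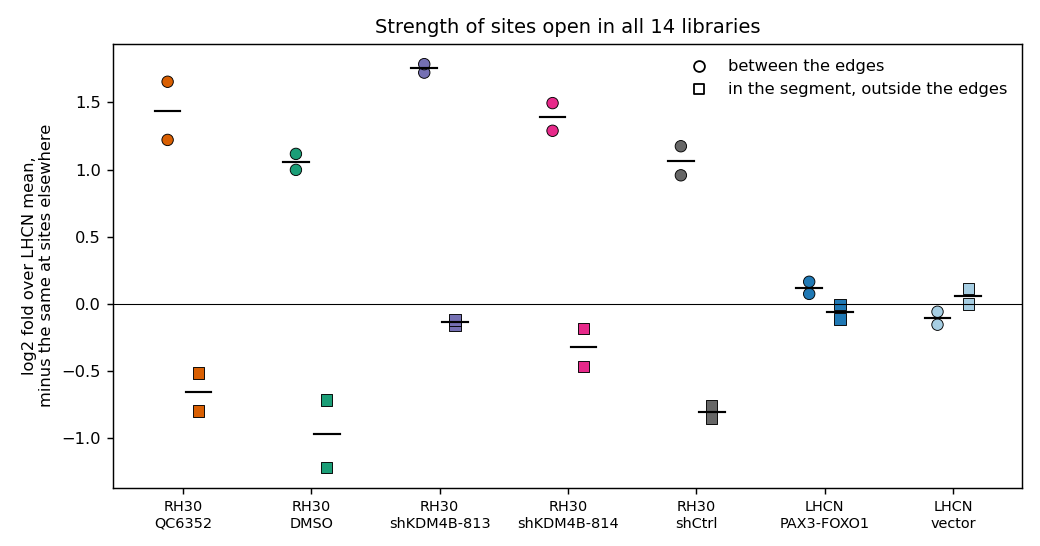
Strength of sites open in all 14 libraries (vertical axis, log2 fold over the LHCN mean minus the same at sites elsewhere), by group. Circles are the 95 core sites, squares the 6 segment sites outside the core, and bars are means of 2 libraries. The circles lie between 0.96 and 1.79 in RH30 and near 0 in LHCN, and the squares lie below 0 in RH30.

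Many segment peaks were seen in few libraries. The trimmed lists merged into 243086 regions, 3168 of them in the segment, with a median width of 389.5 bp against 403 bp elsewhere. Of the 3126 segment regions with an RH30 peak, 1048 (33.5%) were found in 1 RH30 library, against 36.4% elsewhere. Another 318 (10.2%) were found in all 10, against 15.9% elsewhere. The median width grew from 237 bp for regions of 1 library to 1190 bp for regions of all 10. Regions were shared less between libraries than elsewhere: the Jaccard index, the regions with a peak in both of 2 libraries over those with a peak in either, averaged 0.507 within RH30 groups in the segment and 0.603 elsewhere. Within the segment the pair of shKDM4B-813 was the most alike at 0.572, and the pair of DMSO the least at 0.475.

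Sites that were open in LHCN were mostly open in RH30 too. Of 151 segment regions with a peak in all 4 LHCN libraries, 101 (66.9%) had a peak in all 10 RH30 libraries, against 35.9% elsewhere, and 143 (94.7%) had one in at least 1, against 78.9% elsewhere. Only 8 had none, or 0.253% of the segment's regions, beside 5.66% of all regions. In the other direction, 178 segment regions had a peak in all 10 RH30 and in no LHCN list of equal length, 5.62% of the segment's regions beside 1.73% of all regions. Against the LHCN lists as deposited, 118 of the 318 regions open in all RH30 libraries (37.1%) stayed without an LHCN peak, and elsewhere it was 5.97%.

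Of those 118 regions, all in the core, the strongest by their lowest rank over the RH30 libraries was chr6:73793664-73796342. Its folds were 16 and 27.1 with QC6352, 48.2 and 44.3 with DMSO, 72.1 and 46.3 with shKDM4B-813, 58.7 and 50.2 with shKDM4B-814, and 21.9 and 26.0 with shCtrl. Folds are not on 1 scale between libraries: at the shared sites elsewhere their median was 10.9 and 10.2 with QC6352, against 17.6 and 17.2 with DMSO. No order of the groups is read from the folds of single regions. The nearby region chr6:73805178-73807029, also of the top 5, had 29.1 and 40.1 with QC6352, against 21.3 and 12.5 with DMSO. The other 3 of the top 5 were chr6:70862424-70863234 with folds of 18.2 to 68.1, chr6:74831127-74832357 with 10.6 to 40.9 and chr6:68750003-68751119 with 11.6 to 35.3.

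The strongest regions open in all 14 libraries had high folds in both lines. The region chr6:71995718-72001071, 5354 bp wide, had 76.4 and 105 with QC6352, 155 and 136 with DMSO, 246 and 179 with shKDM4B-813, 174 and 161 with shKDM4B-814, and 103 and 106 with shCtrl. In LHCN it had 58.1 and 72.1 with PAX3-FOXO1 and 91.6 and 103 with vector. It held the top fold of the segment in both shKDM4B-813 and both QC6352 libraries. The others were chr6:71375461-71378702 with 52.8 to 146 over the 14 libraries, chr6:70505745-70508409 with 45.5 to 114, chr6:72128312-72131399 with 60.0 to 216 and chr6:72183286-72184032 with 34.1 to 82.4. All 5 lie in the windows from 70 to 73 Mb.

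QC6352 libraries held fewer segment peaks than DMSO libraries at equal list length. The means were 1213 ± 112 with QC6352 and 1561 ± 364 with DMSO (n = 2 each), a ratio of 0.777. The groups did not overlap, but the second DMSO library, at 1304, was only 12 peaks above the second QC6352 library. Without the first DMSO library the log2 ratio was -0.10 in place of -0.36. As deposited the groups overlapped, at 2097 ± 752 with QC6352 and 2158.5 ± 82.7 with DMSO. Among the 50000 strongest peaks the order turned round, with 430 and 618 with QC6352 and 433 and 367 with DMSO. With a −log10 q of 10 or more the groups overlapped, at 387 and 874 with QC6352 and 687 and 584 with DMSO. The lower count of QC6352 at 93488 peaks thus lay among the weaker peaks.

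By window the QC6352 counts were below both DMSO counts from 68 to 70 Mb and from 72 to 74 Mb. The ratio to DMSO was 0.611 at 68 to 69 Mb, 0.543 at 69 to 70 Mb, 0.600 at 72 to 73 Mb, 0.670 at 73 to 74 Mb and 0.862 at 74 to 75 Mb. It was 1.17 at 70 to 71 Mb and 0.923 at 71 to 72 Mb. At 69 to 70 Mb there were 48 and 60 peaks with QC6352, against 117 and 82 with DMSO. At 70 to 71 Mb there were 173 and 192 with QC6352, against 172 and 141 with DMSO, so that both QC6352 libraries were above the DMSO libraries there. At 71 to 72 Mb and at 74 to 75 Mb the groups overlapped. At the shared core sites, relative to shared sites elsewhere, QC6352 was higher than DMSO by 0.38 on the log2 scale. These relative values were 1.44 ± 0.31 with QC6352 and 1.06 ± 0.08 with DMSO, and the groups did not overlap. The median folds at core sites themselves did overlap, at 20 and 26.6 with QC6352, against 29.6 and 24.0 with DMSO. At the shared sites elsewhere they were 10.9 and 10.2 with QC6352, against 17.6 and 17.2 with DMSO.

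With QC6352, 184 of 2324 segment regions lost their peak, meaning a peak in both DMSO and in neither QC6352 library, or 7.92% beside 7.54% of all regions. The lost share was thus near that of all regions. Another 92 segment regions (3.96%) gained a peak, beside 6.28% of all regions. These regions were weak: the median over lost regions of the lower of their 2 rank percentiles in DMSO was 30.3. The strongest lost region, chr6:73832848-73833344, had no deposited peak with QC6352, against folds of 11 and 10.5 with DMSO. For the next, chr6:69243060-69243775, 1 QC6352 library listed a weaker peak as deposited, against 9.30 and 8.11 with DMSO. The same held of chr6:73119134-73119545, at 9.30 and 8.79 with DMSO, and of chr6:74447620-74448747, at 7.97 and 7.10 with DMSO. No QC6352 library listed a peak in chr6:70611305-70611540, against 8.64 and 7.77 with DMSO. The count of lost regions was 343 without the second QC6352 library, 370 without the first DMSO library and 641 without the second, since fewer libraries must then concur. Shares over all regions are not given for these counts, and no difference of the segment is read from them.

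**Figure D5:**
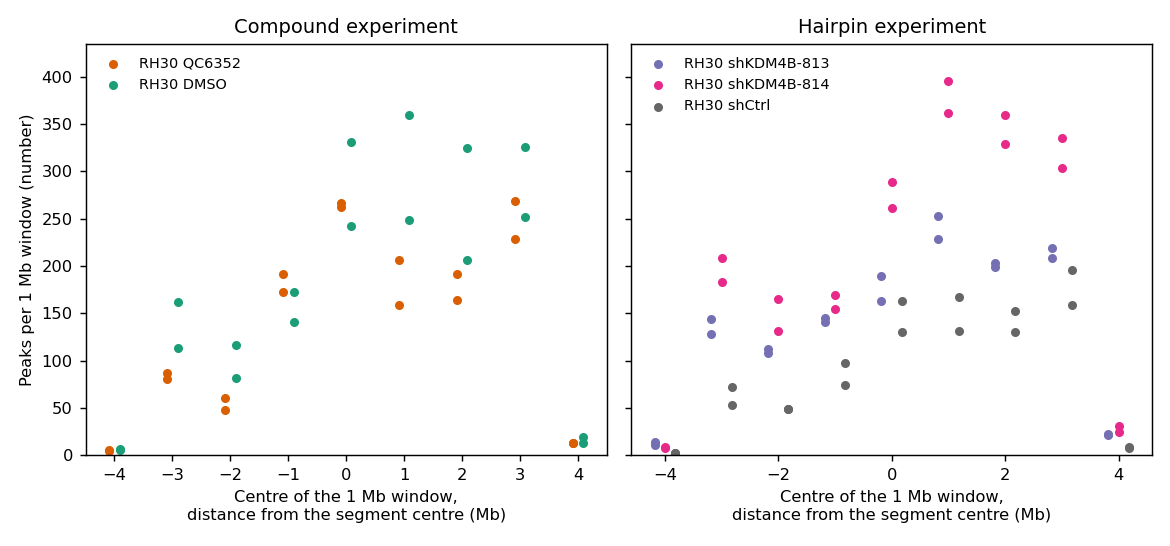
Peaks per 1 Mb window (vertical axis, number) against the distance of the window's centre from the segment centre in Mb, in lists of equal length, with 1 point per library. The left panel shows QC6352 and DMSO, the right panel shKDM4B-813, shKDM4B-814 and shCtrl. The shKDM4B-814 points lie above the others of the right panel in the 7 middle windows, while QC6352 points lie below both DMSO points in 4 of the 7 and above them in 1.

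Both KDM4B hairpins had more segment peaks than shCtrl, the control they share. The means were 1255 ± 15.6 with shKDM4B-813 and 822 ± 122 with shCtrl, a ratio of 1.53. With shKDM4B-814 the mean was 1858.5 ± 102, a ratio of 2.26 to the same shCtrl libraries. Neither hairpin overlapped shCtrl. As deposited the ratios were 1.74 for shKDM4B-813 and 1.51 for shKDM4B-814, so that the order of the hairpins depended on the list length while the direction to shCtrl did not.

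In each of the 7 windows both hairpin means were above the shCtrl mean, and within the stretch the ratios were highest on the left. For shKDM4B-814 over shCtrl the ratio was 3.13 at 68 to 69 Mb and 3.02 at 69 to 70 Mb, and 1.80 to 2.54 in the other 5. For shKDM4B-813 it was 2.18 and 2.25 in those first windows and 1.2 to 1.66 in the others. The sparse windows beside the stretch showed hairpin counts above shCtrl as well. At 67 to 68 Mb there were 11 and 14 peaks with shKDM4B-813, 8 and 9 with shKDM4B-814, and 2 and 2 with shCtrl, ratios of 6.25 and 4.25. At 75 to 76 Mb there were 21 and 23 peaks with shKDM4B-813, 31 and 25 with shKDM4B-814, and 9 and 8 with shCtrl, ratios of 2.59 and 3.29. The difference to shCtrl was thus not particular to the 7 windows. The window at 72 to 73 Mb had 253 and 229 peaks with shKDM4B-813, 395 and 362 with shKDM4B-814, and 167 and 131 with shCtrl. At the shared core sites, relative to shared sites elsewhere, the hairpins were above shCtrl without overlap. The difference was 0.69 with shKDM4B-813 and 0.33 with shKDM4B-814 on the log2 scale. The 6 shared sites outside the core were also higher than with shCtrl, at -0.14 ± 0.03 with shKDM4B-813, -0.32 ± 0.20 with shKDM4B-814 and -0.80 ± 0.06 with shCtrl.

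With shKDM4B-813, 268 of 1700 segment regions gained a peak over shCtrl (15.8% beside 12.9% of all regions), and 32 lost one (1.88% beside 7.53%). With shKDM4B-814, 406 of 2262 gained one (17.9% beside 7.01%), and 7 lost one (0.309% beside 6.33%). With a peak in all 4 hairpin libraries and in neither shCtrl library there were 137 of 2506 regions, or 5.47% beside 3.62% of all regions, and the reverse held of 6, or 0.239% beside 4.24%. The 137 became 238 without the first shCtrl library, a count given without its share over all regions. Of these gained regions the strongest was chr6:68339909-68340451, with folds of 18.6 and 16 with shKDM4B-813 and 13.1 and 12.0 with shKDM4B-814. It lies left of the core and had 16.5 to 35.4 in the 4 LHCN libraries. The second, chr6:68764612-68765062, had 12.6 and 12.7 with shKDM4B-813 and 10.4 and 9.88 with shKDM4B-814, and no peak in any other trimmed list. The third, chr6:71142727-71143457, had 24.3 and 16.4 with shKDM4B-813 and 11.6 and 9.45 with shKDM4B-814. It was also present at 14.9 and 17.1 with QC6352 and at 8.64 and 8.11 with DMSO, so there shCtrl was the group of RH30 without a peak. The remaining ones were chr6:69684975-69685255 and chr6:71256538-71257342, and for all 5 the deposited shCtrl lists held no peak.

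The hairpins differed from each other. At equal list length shKDM4B-813 had 1255 ± 15.6 peaks and shKDM4B-814 had 1858.5 ± 102, a ratio of 0.675, and the groups did not overlap. An exact two-sided permutation test gave p = 0.333, the smallest that 2 libraries against 2 allow. As deposited the order was the reverse, 2256.5 ± 162 with shKDM4B-813 and 1955 ± 239 with shKDM4B-814. Among peaks with a −log10 q of 10 or more it was the reverse too, 863.5 ± 110 with shKDM4B-813 and 619 ± 163 with shKDM4B-814, a log2 ratio of 0.48 in place of -0.57. At shared core sites, relative to shared sites elsewhere, shKDM4B-813 was the higher by 0.36 on the log2 scale (p = 0.333, exact permutation). In regions, 50 of 2423 were open with shKDM4B-813 alone of the pair (2.06% beside 6.21% of all regions) and 237 with shKDM4B-814 alone (9.78% beside 3.27%). Among the 50000 strongest peaks the groups overlapped, at 505 and 578 with shKDM4B-813 and 536 and 597 with shKDM4B-814 (exact permutation p = 0.667). Which hairpin had more segment peaks thus depended on the list length and the peak limit.

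The control hairpin had fewer segment peaks than DMSO, with 822 ± 122 with shCtrl and 1561 ± 364 with DMSO, a ratio of 0.527. The ratio was between 0.455 and 0.614 in all 7 windows. It was 0.599 as deposited, but among the 50000 strongest peaks the log2 ratio was -0.059, with 415 and 353 peaks with shCtrl and 433 and 367 with DMSO. At the shared core sites, relative to shared sites elsewhere, the groups overlapped and differed by 0.0082 on the log2 scale. In regions, 15 of 2033 were gained with shCtrl (0.738% beside 7.32% of all regions) and 266 lost (13.1% beside 10.0%). Transduction and vehicle differ between these groups as well, and their parts cannot be told apart.

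In LHCN, PAX3-FOXO1 libraries held fewer segment peaks than vector libraries at equal list length. The counts of all LHCN libraries entered the choice of the segment. Their distance from RH30 is therefore no result on PAX3-FOXO1. LHCN had 210.5 ± 0.71 peaks with PAX3-FOXO1 and 239 ± 5.66 with vector, a ratio of 0.881. The groups did not overlap, with p = 0.333 by exact two-sided permutation, the smallest possible here. As deposited the counts were 415 ± 2.83 with PAX3-FOXO1 and 446 ± 14.1 with vector, with the same p = 0.333 by exact permutation. With a −log10 q of 10 or more the groups overlapped, at 315 and 355 with PAX3-FOXO1 and 373 and 337 with vector, with an exact permutation p = 0.667. By window from 68 to 75 Mb the ratio was 0.822 to 0.909 except at 69 to 70 Mb, where 14 and 13 peaks stood with PAX3-FOXO1 and 10 and 11 with vector, a ratio of 1.29. At shared core sites, relative to shared sites elsewhere, PAX3-FOXO1 was higher by 0.23 on the log2 scale (exact permutation p = 0.333). The values were 0.12 ± 0.06 with PAX3-FOXO1 and -0.11 ± 0.07 with vector. The median folds at core sites themselves were 20.2 and 28.3 with PAX3-FOXO1, against 28.0 and 28.4 with vector.

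Of 280 segment regions in LHCN, 22 gained a peak with PAX3-FOXO1 (7.86% beside 10.2% of all regions) and 33 lost one (11.8% beside 9.5%). The shares lay near those of all regions. The strongest gained region was chr6:75214472-75215027, right of the core, with folds of 16.5 and 22.3 with PAX3-FOXO1 and no deposited peak with vector. It had a peak in 5 RH30 libraries, at folds of 4.73 to 8.5. The second, chr6:69989455-69990462, had 14.7 and 15.4 with PAX3-FOXO1, while both vector libraries listed a weaker peak as deposited. In RH30 this second region was open in all 10 libraries at folds of 19.3 to 88.3. The third, chr6:75120392-75120697, had 12.4 and 14.3 and no peak in any RH30 library. Among lost regions chr6:72970193-72970569 had no deposited peak with PAX3-FOXO1, against 23.5 and 25.1 with vector. The other 2 were still listed at lower rank in both PAX3-FOXO1 libraries, chr6:75244168-75244519 against 19 and 18.9 with vector and chr6:73359290-73359682 against 18.4 and 19.8 with vector. Of these lost regions, chr6:72970193-72970569 had a peak in 2 RH30 libraries, chr6:73359290-73359682 in 4 and chr6:75244168-75244519 in none.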

How the data were processed

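Per the labels' protocols, ATAC-seq libraries were made from LHCN and RH30 cells and sequenced in pairs of reads. MACS2 2.1.1, BWA 0.7.12-r1039, SAMtools 1.3.1 and Picard 1.65 with build hg19 are named per the submitters' processing notes. How each was set, and whether reads were shifted for the Tn5 offset or filtered, is not given in the sources. The authors deposited 1 peak list per library. Its score was deposited too and was not used. The authors' fold per peak is a ratio over background, used to describe peaks. The −log10 p was deposited as well, and the deposited −log10 q ranked peaks. The lowest −log10 q of a list was 2.00 to 2.60, so a missing peak means only that none passed.

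Groups came from sample titles. Peaks were ranked by −log10 q, then fold, then position, and the 93488 strongest of each list kept. Peaks were merged into regions, and 1 bp of overlap made a library present. A region was gained or lost when every library of one side and none of the other had a peak. Edges were the 2 bin borders of highest Poisson likelihood over the segment and 10 Mb on each side, expected counts following the LHCN mean plus 1. In simulated data they came within 1 bin in 20 of 20 draws at a density ratio of 8, in 18 of 20 at a ratio of 4 and in 6 of 20 at a ratio of 2. Those draws had an even density on each side of an edge and a known expected count. They therefore do not give the accuracy for the uneven counts of these libraries. Named regions were, per class, the 5 (3 for PAX3-FOXO1) with the highest lowest rank percentile in the libraries that have them. Tests were exact two-sided permutations over libraries. The segment, measures and rules were chosen with earlier results of these data known, and 10 kb bins, the core and the comparison site by site were added after seeing the data. Coordinates count from 1. The planned gene and marker checks were not run, since no annotation of hg19 was used here. Python 3.11.15, numpy 2.4.6, pandas 2.3.3, scipy 1.17.1 and matplotlib 3.10.9 were used.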

Additional observations from a re-analysis of the deposited data

How the results depend on the processing

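Of 109 alternatives to 12 results, 3 turned the direction. Another 18 were counted as moving the value beyond the spread between libraries (or a count by over 1.5 times), and 88 as doing neither. For the 2 tested comparisons some of those 88 did move beyond that spread, an SD of 0.034 for PAX3-FOXO1 over vector and 0.082 for shKDM4B-813 over shKDM4B-814. The first was -0.10 as deposited in place of -0.18, and the second was -0.24 in base pairs covered in place of -0.57. Among the 88, some differences became small: QC6352 over DMSO was -0.042 as deposited and -0.011 with a −log10 q of 10 or more, in place of -0.36, with overlapping groups in both. There too PAX3-FOXO1 over vector was -0.084 with that limit (exact permutation p = 0.667), in place of -0.18, and shKDM4B-813 over shKDM4B-814 was -0.065 with the 50000 strongest peaks (exact permutation p = 0.667), in place of -0.57. Values are log2 ratios of segment peaks unless named otherwise, and the cause of a change was not tested. With the 50000 strongest peaks, QC6352 over DMSO was 0.39, shKDM4B-814 over shCtrl 0.56 in place of 1.18, shCtrl over DMSO -0.059 in place of -0.93, and RH30 over LHCN 2.09 in place of 2.58. With the lists as deposited, shKDM4B-813 over shKDM4B-814 was 0.21, and shKDM4B-814 over shCtrl was 0.60. With a −log10 q of 10 or more, shKDM4B-813 over shKDM4B-814 was 0.48, shKDM4B-813 over shCtrl 1.31 in place of 0.61, shKDM4B-814 over shCtrl 0.83, and RH30 over LHCN 0.84. That limit leaves 43219 to 77239 peaks per RH30 list and 123409 to 139986 per LHCN list. The mean left edge was 68430001 with that limit and 68415001 with 10 kb bins. The RH30 excess at shared sites, 1.19 on the log2 scale over the whole segment, was 14.3 points as a within-list percentile. Regions lost with QC6352 numbered 19 with the 50000 strongest peaks and 42 with the −log10 q limit, in place of 184, and regions gained with both hairpins numbered 40 and 72 in place of 137. Shares over all regions are not given for these counts, so they do not tell the segment from all regions.

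Leaving out each library in turn gave -0.58 to -0.10 for QC6352 over DMSO, 0.47 to 0.77 for shKDM4B-813 over shCtrl, 1.03 to 1.34 for shKDM4B-814 over shCtrl, -1.15 to -0.67 for shCtrl over DMSO, -0.21 to -0.16 for PAX3-FOXO1 over vector, -0.62 to -0.51 for shKDM4B-813 over shKDM4B-814 and 2.51 to 2.65 for RH30 over LHCN. It gave 231 to 641 regions lost with QC6352 and 163 to 238 gained with both hairpins, again without shares over all regions.

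Groups share replicate numbers, and nothing in the labels pairs them. Deviations of same-numbered libraries over 2908 windows correlated at -0.312 for QC6352 and DMSO and at 0.0704 to 0.371 for the other comparisons. With the replicate number as a block, the log2 ratios were -0.35 for QC6352 over DMSO (-0.35 crossed also), 0.62 for shKDM4B-813 and 1.18 for shKDM4B-814 over shCtrl, -0.91 for shCtrl over DMSO, -0.18 for PAX3-FOXO1 over vector and -0.57 for shKDM4B-813 over shKDM4B-814.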
